A study of Mus musculus with 9 samples.

Results

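The genes described here encode the proteins of the mitochondrial ribosome. They are the 78 entries, of 29756 in the deposited expression table, whose symbol is Mrpl or Mrps followed by a number and at most 1 letter. By name, 49 belong to the large subunit (Mrpl) and 29 to the small subunit (Mrps). RNA was sequenced from HT22, an immortalised mouse hippocampal neuronal cell line, in 3 groups with 3 libraries each, which the labels call intervention, experimental and control. Hemin, the ferric chloride form of heme, and PPP8, a bioactive micelle, appear in the title of the series, but no label links a group to either agent, and the groups therefore keep their label names. No genotype, dose or time is given. Whether the 3 libraries of a group came from separate cultures is not stated, so a p-value here reflects library spread that may be technical.

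The mitochondrial ribosome translates the few mRNAs encoded by mitochondrial DNA, all of which make membrane subunits of the respiratory chain and the ATP synthase. Its rRNAs are transcribed in the mitochondrion, whereas every one of its proteins is encoded in the nucleus, made on cytosolic ribosomes and imported. The large subunit joins amino acids at the peptidyl transferase centre and the small subunit reads the mRNA at the decoding site. Many of the proteins have bacterial homologues, and mammalian mitoribosomes also carry others found only in mitochondria. A few symbols mislead: Mrps30 and Mrps18a encode proteins that sit in the large subunit, and Mrps36 encodes a component of the alpha-ketoglutarate dehydrogenase complex and no ribosomal subunit.

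Values are FPKM, fragments scaled to gene length and to the size of the library. They are shares of a library, so less RNA per cell and a smaller share of the same RNA cannot be told apart. FPKM summed to between 316912 and 339943 per library, and the read depth is unknown. Of 12 neuron markers, only 2 (Tubb3 and Eno2) averaged 1 FPKM or more over the 9 libraries, and 1 stayed under 0.1 FPKM in every library. The 12 markers summed to 9.33 to 11.14 FPKM in intervention libraries, 12.27 to 12.32 in experimental libraries and 12.55 to 17.34 in control libraries, with Eno2 at 1.893 ± 0.127, 2.01 ± 0.02 and 5.337 ± 0.621 FPKM in the same groups (SD, n = 3 each). The transcripts Neat1 and Malat1 were read as an indirect sign of RNA quality only, and they do not measure RNA integrity. They summed to 75.27 to 91.81 FPKM in intervention libraries, 82.05 to 105.66 in experimental libraries and 114.78 to 201.71 in control libraries. Markers of the oligodendrocyte lineage, 1 of 6 at a mean of 1 FPKM or more (Pdgfra), summed to 7.53 to 9.18, 6.78 to 7.3 and 16.1 to 17.53 FPKM in the same groups, and those of endothelium (0 of 4) stayed at or under 0.28 FPKM. Astrocyte markers (2 of 6, Slc1a3 and Gja1) summed to 9.86 to 11.05 FPKM in intervention libraries, 10.23 to 10.32 in experimental libraries and 8.91 to 9.97 in control libraries. The 2 moved in opposite directions, with Slc1a3 at 2.43 ± 0.429, 2.103 ± 0.21 and 5.273 ± 0.407 FPKM and Gja1 at 7.65 ± 0.09, 7.83 ± 0.0755 and 3.53 ± 0.355 FPKM in intervention, experimental and control cells (SD, n = 3 each). Microglia and blood markers (1 of 6, Cd68) summed to 2.01 to 2.39, 1.7 to 2.45 and 1.26 to 1.68 FPKM in the same groups. The part of these shifts in the results below was not tested.

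All 78 genes were expressed, and 77 of them reached 1 FPKM in every library. The exception, Mrpl23, an exit tunnel protein, had 1.33, 1.22 and 1.41 FPKM in intervention libraries, 1.05, 1.16 and 0.96 in experimental libraries and 1.82, 2.2 and 1.77 in control libraries. The median of the genes' mean levels over the 9 libraries was 9.26 FPKM. It was 10.5 FPKM for the 49 large-subunit genes and 7.53 FPKM for the 29 small-subunit genes. The particle holds most of its proteins as single copies, but the mRNA levels spread widely, with 14 of the 78 under 5 FPKM and 14 at 20 FPKM or more. Exons of 33 of the 78 genes overlap those of another gene, for 28 on the opposite strand. Levels of these 33 are less certain as those of single genes.

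The highest level was that of Mrpl18, a protein of the central protuberance, where the large subunit faces the head of the small subunit. It had 56.35, 51.54 and 47.91 FPKM in intervention libraries, 41.79, 45.78 and 43.01 in experimental libraries and 54.92, 56.39 and 49.21 in control libraries. Mrpl12, the stalk protein that also binds the mitochondrial RNA polymerase, followed with 42.07, 35.66 and 36.9 FPKM in intervention libraries, 33.65, 34.78 and 31.77 in experimental libraries and 28.44, 31.69 and 25.58 in control libraries. These differ in pattern, since Mrpl18 was lowest in the experimental group and Mrpl12 was lowest in the control group. On the other strand, Mrpl18 shares 141 exonic bases with Tcp1 and Mrpl12 shares 200 with Gm16755. Levels of both are therefore uncertain as those of single genes. By the mean of all 9 libraries, Mrps15 (30.46 FPKM) and Mrps6 (30.44 FPKM) were the most abundant small-subunit genes. The level of Mrps6 is uncertain as that of a single gene, since 305 of its exonic bases are shared with Slc5a3 and Gm49711 on the same strand. Mrps6 averaged 29.57 ± 2.21 FPKM in intervention cells, 33.04 ± 2.42 in experimental cells and 28.7 ± 3.93 in control cells, and Mrps15 averaged 28.71 ± 1.51 FPKM in intervention cells, 25.66 ± 1.73 in experimental cells and 37.01 ± 1.65 in control cells (SD, n = 3 each). At the other end stood Mrps35 of the small subunit head, with 1.593 ± 0.34 FPKM in intervention cells, 1.21 ± 0.0794 in experimental cells and 2.067 ± 0.355 in control cells, and Mrpl48 of the central protuberance, with 1.667 ± 0.212, 1.32 ± 0.213 and 2.303 ± 0.2 FPKM in the same order of groups (SD, n = 3 each). Levels of Mrpl48 are uncertain because its pseudogene entry Mrpl48-ps carried more signal than the gene itself, at 4.4, 3.73 and 6.88 FPKM in intervention libraries, 4.51, 4.69 and 3.48 in experimental libraries and 6.03, 8.29 and 5.26 in control libraries. Mrpl48 also shares 708 exonic bases with Rab6a on the other strand.

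As a whole the set was lowest in the experimental group. The 78 levels summed to 1039.58, 916.98 and 977.47 FPKM in intervention libraries, 828.24, 857.77 and 807.44 in experimental libraries and 992.65, 1060.2 and 921.43 in control libraries. All 3 experimental sums lay below the other 6, and the intervention and control sums overlapped. Within groups the genes moved together by library: intervention library 1 held the group's highest value for 57 of 78 genes (73.1%, against 45.9% of all entries tested), and control library 2 for 60 (76.9%, against 38.0%). The plot of subunit medians by library shows the same steps. Between replicates, the median coefficient of variation of the 78 genes was 8.11% in the intervention group, 6.77% in the experimental group and 7.68% in the control group, against 7.03%, 6.53% and 6.98% for all entries tested.

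**Figure D1:**
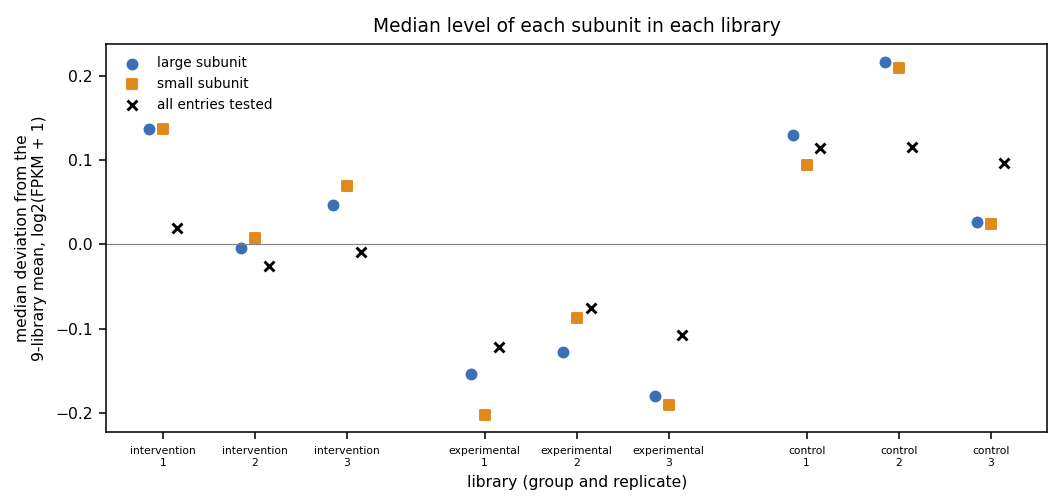
Median deviation of the large-subunit genes (circles), the small-subunit genes (squares) and all 11974 entries tested (crosses) from their 9-library mean on the log2(FPKM + 1) scale, in each library. Both subunits move together from library to library, between -0.20 and -0.087 in experimental libraries and between 0.024 and 0.22 in control libraries. All entries tested lie between -0.122 and -0.076 in experimental libraries and between 0.096 and 0.115 in control libraries.

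The first comparison set experimental against control cells of the same line. Each gene was compared on the log2(FPKM + 1) scale with limma, and called at an adjusted p under 0.05 over all 11974 entries tested. Lower levels dominated: 46 of 78 genes were lower in experimental cells, 13 were higher and 19 were not called. Over all entries tested, 50.5% were called lower and 23.5% higher, so the genes' 46 and 13 are near that background. In 44 genes every experimental library lay below every control library (51.5% of all entries), and in 14 every one lay above (24.7%). The median difference was -0.29 for the 78 genes and -0.21 for all entries tested. The split of directions depended on scaling: median-ratio scaling moved the median of all entries to 0.003 and left 26 of the 78 genes lower and 25 higher, against 36.4% and 36.6% of all entries. Relative to all entries the 78 genes were 0.080 lower in the median.

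The sizes were modest. A fall of at least 1.5-fold in mean FPKM was seen in 20 of the 78 genes and a gain of that size in 1, whereas 31.7% and 11.8% of all entries tested passed the same limits. Only 4 genes were at least 2-fold lower (15.8% of all entries), and none was 2-fold higher (5.3% of all entries).

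**Figure D2:**
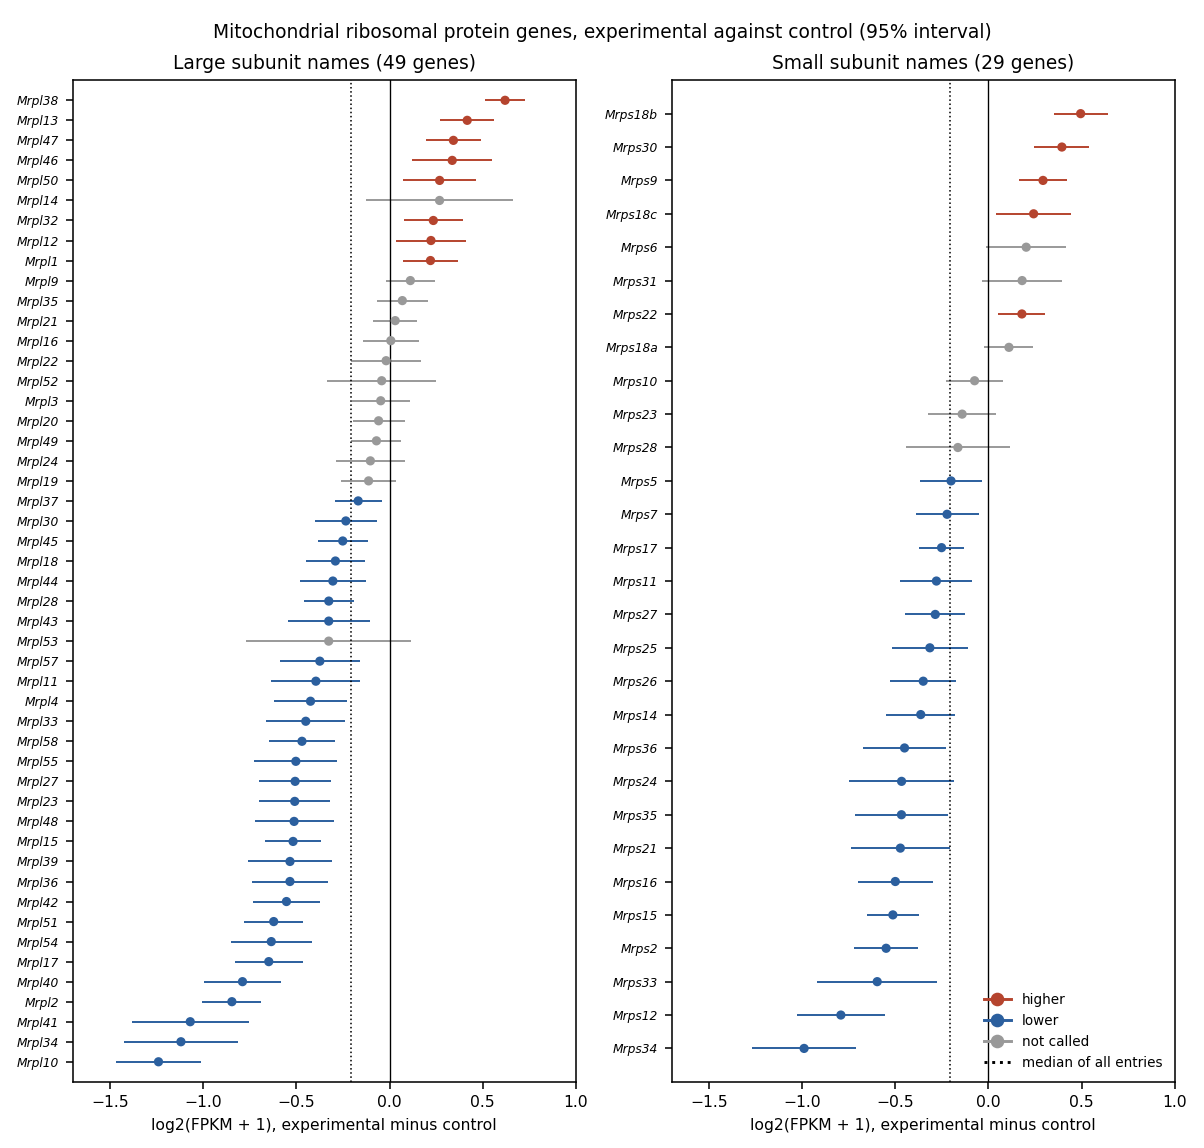
Difference of each of the 78 genes between experimental and control cells on the log2(FPKM + 1) scale with its 95% interval from limma, 3 libraries a group; large-subunit names are on the left and small-subunit names on the right, and the dotted line is the median of all entries tested (-0.21). Genes run from Mrpl38 at 0.62 to Mrpl10 at -1.24, and both panels hold genes on each side of 0.

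The genes with the largest falls came from several sites of the particle. Mrpl10, which anchors the stalk that recruits translation factors, had 13.62, 12.16 and 13.06 FPKM in intervention libraries, 8.92, 12.38 and 9.1 in experimental libraries and 25.99, 24.6 and 24.56 in control libraries. Every experimental and intervention library lay below every control library. Its difference between experimental and control cells was -1.24 (SE 0.103, adjusted p = 2.42e-06), a ratio of mean FPKM of 0.405. Mrpl10 (GRCm38, chr11:97041560-97049213, plus strand) shares 240 exonic bases with the antisense gene Gm11574, and without knowledge of strand use the reads of the pair cannot be told apart.

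Mrpl34, a small large-subunit protein with a bacterial homologue (chr8:71464959-71465747, plus strand), had 11.58, 10.76 and 13.28 FPKM in intervention libraries, 7.11, 9.09 and 6.45 in experimental libraries and 19.78, 18.61 and 14.34 in control libraries. The 3 groups did not overlap, with the experimental group lowest. Experimental cells differed from controls by -1.12 (SE 0.136, adjusted p = 3.51e-05). Mrpl41, found only in mitochondrial ribosomes, fell in a similar measure, with 12.02, 8.49 and 10.39 FPKM in intervention libraries, 6.92, 8.67 and 6.14 in experimental libraries and 18.52, 16.06 and 14.18 in control libraries. The difference of Mrpl41 between experimental and control cells was -1.07 (SE 0.141, adjusted p = 6.18e-05), and its intervention and experimental values overlapped.

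Mrps34, a mitochondria-specific protein of the small subunit, had 13.71, 9.52 and 11.21 FPKM in intervention libraries, 8.17, 7.1 and 6.11 in experimental libraries and 16.2, 15.02 and 14 in control libraries. It was the small-subunit gene with the largest difference between experimental and control cells, at -0.99 (SE 0.125, adjusted p = 4.44e-05). Of its exonic bases, 1605 are shared with Nme3 on the same strand and Mapk8ip3 on the other, so its level is uncertain as a single gene. Mrpl2 lies at the peptidyl transferase centre, where it belongs to the conserved core of the large subunit. It had 22.96, 19.14 and 20.33 FPKM in intervention libraries, 15.95, 16.14 and 15.41 in experimental libraries and 29.18, 31.33 and 27.38 in control libraries, again with no overlap between the 3 groups. Its difference between experimental and control cells was -0.85 (SE 0.0711, adjusted p = 2.62e-06).

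Mrps12, the decoding-site protein whose bacterial homologue is the target of streptomycin resistance mutations, was lower as well. It had 8.1, 6.25 and 7.1 FPKM in intervention libraries, 5.67, 6.09 and 4.47 in experimental libraries and 9.8, 9.72 and 10.6 in control libraries. Experimental cells differed from controls by -0.79 (SE 0.106, adjusted p = 6.83e-05). All 3 genes placed at the decoding site and mRNA path (Mrps12, Mrps24 and Mrps5) were called lower, as were 50.5% of all entries, and Mrps24 was not called with median-ratio scaling (adjusted p = 0.082) or quantile normalization (adjusted p = 0.21). These 6 genes with the largest falls, Mrpl10, Mrpl34, Mrpl41, Mrps34, Mrpl2 and Mrps12, were among 19 genes called lower under every alternative tried.

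**Figure D3:**
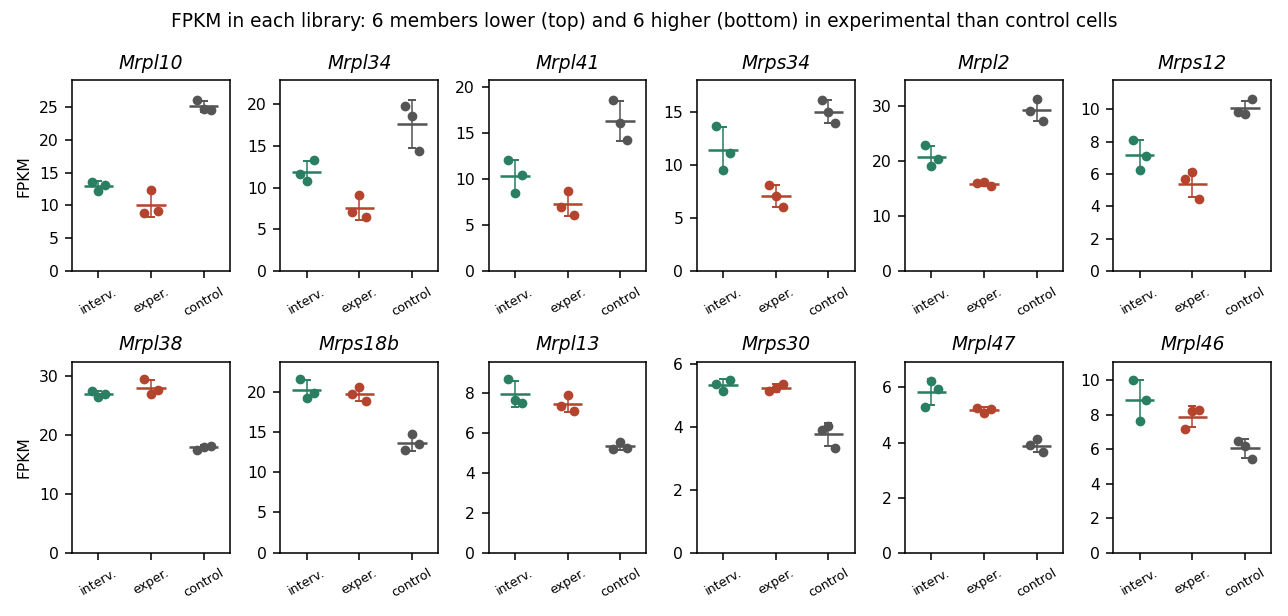
FPKM in each library for the 6 genes with the largest falls (top) and the 6 with the largest gains (bottom) between experimental and control cells; points are libraries, horizontal lines are group means and bars are SD, 3 libraries a group. In the top row the control libraries lie above both other groups, and in the bottom row they lie below them.

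A smaller group was higher in experimental cells. Mrpl38, which sits at the central protuberance and is found only in mitochondrial ribosomes, had 27.41, 26.37 and 26.98 FPKM in intervention libraries, 29.42, 26.95 and 27.63 in experimental libraries and 17.45, 17.99 and 18.13 in control libraries. The intervention and experimental values overlapped, and all 6 were above the controls. Its difference between experimental and control cells was 0.62 (SE 0.0472, adjusted p = 1.37e-06), a ratio of mean FPKM of 1.57, and it was the gene past the 1.5-fold limit. Mrps18b, 1 of 3 Mrps18 paralogues, had 21.54, 19.24 and 19.85 FPKM in intervention libraries, 19.68, 20.53 and 18.83 in experimental libraries and 12.81, 14.79 and 13.47 in control libraries. It differed by 0.49 between experimental and control cells (SE 0.0649, adjusted p = 5.87e-05).

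The next gains were of the same kind. Mrpl13, a conserved large-subunit protein, averaged 7.96 ± 0.645 FPKM in intervention cells, 7.473 ± 0.398 in experimental cells and 5.343 ± 0.18 in control cells (SD, n = 3 each), a difference of 0.42 between experimental and control cells (adjusted p = 0.000197). Mrps30, placed in the large subunit despite its name, averaged 5.323 ± 0.178, 5.23 ± 0.121 and 3.75 ± 0.37 FPKM in intervention, experimental and control cells (SD, n = 3 each), a difference of 0.39 between experimental and control cells (adjusted p = 0.000335). Mrpl47, near the polypeptide exit, averaged 5.82 ± 0.472, 5.193 ± 0.1 and 3.887 ± 0.24 FPKM in the same groups (SD, n = 3 each), a difference of 0.34 between experimental and control cells (adjusted p = 0.00085). Mrpl13 shares 330 exonic bases with Mtbp, Mrps30 shares 623 with B430218F22Rik, Mrpl47 shares 1068 with Actl6a and Ndufb5, and Mrps18b shares 638 with Gm16279, all on the other strand. Whether counting used strand is not given in the sources used here, so their levels are uncertain as those of single genes. In none of these genes did a control library reach the lowest intervention or experimental library. Of the 13 higher genes, the 5 named Mrpl13, Mrpl38, Mrpl46, Mrps18b and Mrps9 were called higher under every alternative.

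At the stalks the called directions were mixed. Mrpl10 and Mrpl11 were lower in experimental than control cells and Mrpl12 and Mrpl1 were higher. Mrpl11 averaged 7.467 ± 0.955 FPKM in intervention cells, 5.897 ± 0.758 in experimental cells and 8.057 ± 0.803 in control cells (SD, n = 3 each), a difference of -0.40 between experimental and control cells (adjusted p = 0.00693) that was not called after median-ratio scaling (adjusted p = 0.142). Mrpl12 differed by 0.22 between experimental and control cells (SE 0.0838, adjusted p = 0.0339), a call lost with TPM scaling (adjusted p = 0.0846) and without experimental library 1 or 2 or control library 1 or 3 (adjusted p = 0.0726 to 0.127). Mrpl1 averaged 6.133 ± 0.225, 5.41 ± 0.0964 and 4.517 ± 0.476 FPKM in intervention, experimental and control cells (SD, n = 3 each), with a difference of 0.22 between experimental and control cells (adjusted p = 0.0129). The call of Mrpl1 was lost without control library 3 (adjusted p = 0.0524).

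At the peptidyl transferase centre, 2 of 4 genes were called lower, as were 50.5% of all entries. Mrpl27, which reaches into the catalytic centre, averaged 17.51 ± 1.05 FPKM in intervention cells, 14.06 ± 1.07 in experimental cells and 20.45 ± 2.44 in control cells (SD, n = 3 each), a difference of -0.51 between experimental and control cells (adjusted p = 0.000376). Mrpl3 and Mrpl16 were not called, at -0.05 (95% interval -0.203 to 0.109) and 0.007 (-0.144 to 0.158) on the log2 scale. Both were called higher in experimental cells after median-ratio scaling, Mrpl3 with an adjusted p of 0.0331 and Mrpl16 with 0.00502. Mrpl3 shares 248 exonic bases with Gm38077 on the same strand and Gm47106 on the other, so its level is uncertain as that of a single gene. At the central protuberance 4 of 6 genes were lower and 2 higher, against 50.5% and 23.5% of all entries. Mrpl40 and Mrpl38, which both sit there, moved in opposite directions: Mrpl40 averaged 5.99 ± 0.845 FPKM in intervention cells, 4.457 ± 0.317 in experimental cells and 8.437 ± 0.707 in control cells (SD, n = 3 each; difference between experimental and control cells -0.79, adjusted p = 2.61e-05).

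Other proteins with known single roles fell. Mrpl58, the peptidyl-tRNA hydrolase of the central protuberance that rescues stalled ribosomes, averaged 7.077 ± 0.736 FPKM in intervention cells, 5.61 ± 0.501 in experimental cells and 8.14 ± 0.255 in control cells (SD, n = 3 each), a difference of -0.47 between experimental and control cells (adjusted p = 0.00032). Mrpl45, which ties the exit side of the ribosome to the inner membrane, averaged 16.98 ± 0.93, 14.79 ± 0.445 and 17.81 ± 1.14 FPKM in intervention, experimental and control cells (SD, n = 3 each). Its difference between experimental and control cells was -0.25 (adjusted p = 0.00333), not called after median-ratio scaling (adjusted p = 0.85). Mrps7, a protein of the small subunit head, averaged 24.21 ± 0.282, 21.81 ± 2.03 and 25.6 ± 2.18 FPKM in the same groups (SD, n = 3 each), a difference of -0.22 between experimental and control cells (adjusted p = 0.0219) whose sign turned after median-ratio scaling (0.02). Without experimental library 1 or control library 1 or 2 Mrps7 was not called (adjusted p = 0.0585 to 0.0922). Mrps36, the misnamed dehydrogenase component, averaged 6.82 ± 0.799, 5.67 ± 0.123 and 8.167 ± 1.24 FPKM (SD, n = 3 each), a difference of -0.45 between experimental and control cells (adjusted p = 0.00207) that was not called with quantile normalization (adjusted p = 0.0817).

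The 3 Mrps18 paralogues include Mrps18a, which sits in the large subunit. Mrps18c averaged 14.73 ± 0.921 FPKM in intervention cells, 13.06 ± 0.539 in experimental cells and 10.95 ± 1.55 in control cells (SD, n = 3 each). Mrps18a averaged 9.137 ± 0.408, 8.567 ± 0.0737 and 7.877 ± 0.571 FPKM in the same groups (SD, n = 3 each). Between experimental and control cells Mrps18b and Mrps18c were called higher (0.49 and 0.24, adjusted p of Mrps18c = 0.0327), and Mrps18a was not called (0.11, 95% interval -0.0216 to 0.241). Mrps18a was called higher with median-ratio scaling (0.34, adjusted p = 0.000539), with quantile normalization (0.34, adjusted p = 0.000624) and without control library 2 (0.16, adjusted p = 0.0317). The call of Mrps18c was lost with TPM scaling (adjusted p = 0.0798), when all entries were kept whatever their level (0.0822) and without experimental library 1 or 3 or control library 3 (adjusted p = 0.0802 to 0.101). Mrps18c shares 250 exonic bases with Gm43511 on the same strand, so its level is uncertain as that of a single gene.

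Large and small subunits did not differ by more than the spread between libraries in this comparison. Among large-subunit names 28 of 49 genes were lower and 8 higher, and among small-subunit names 18 of 29 were lower and 5 higher. Of all entries tested 50.5% were lower and 23.5% higher. Their median differences between experimental and control cells were -0.30 and -0.28. The large-subunit median was thus 0.025 log2 units lower, against a spread of 0.034 between libraries (pooled SD). Moving Mrps30 and Mrps18a to the large subunit and leaving out Mrps36 gave medians of -0.29 and -0.28.

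Summed levels were compared within each library. The large-subunit sum over the small-subunit sum, which does not depend on the scaling of a library, was 1.956, 1.972 and 1.965 in intervention libraries, 1.898, 1.875 and 1.900 in experimental libraries and 1.944, 1.905 and 1.943 in control libraries. The 3 groups did not overlap by name, with the intervention group highest and the experimental group lowest. By structure the ratio was 2.127, 2.161 and 2.154 in intervention libraries, 2.086, 2.055 and 2.098 in experimental libraries and 2.099, 2.064 and 2.097 in control libraries, so that the experimental and control ranges overlapped and the intervention libraries stayed above both. A sum gives most weight to the most abundant genes. The median deviation over genes, large minus small by name, went the other way between intervention (-0.0221 to 0.0001) and control libraries (0.0022 to 0.0364).

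**Figure D4:**
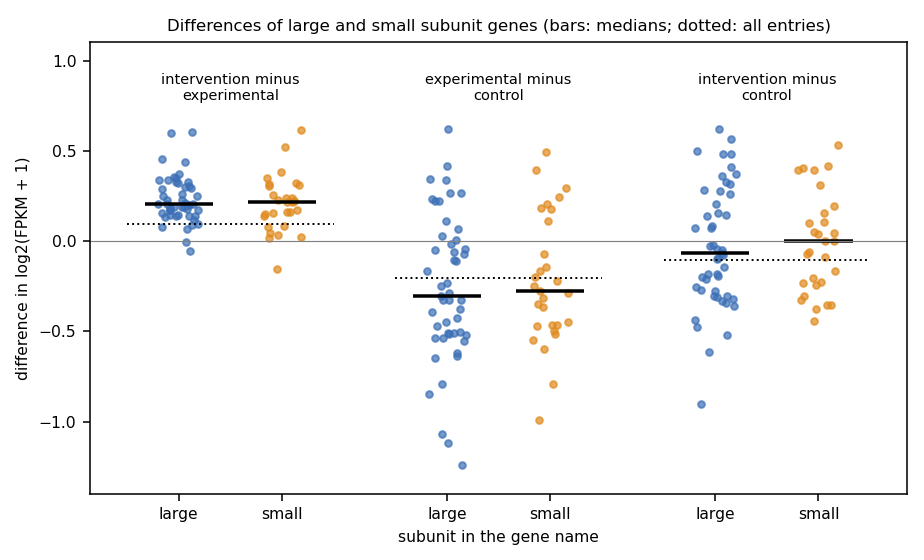
Difference of each gene on the log2(FPKM + 1) scale, for 49 large-subunit and 29 small-subunit names in each comparison; bars are medians over genes and dotted lines the medians of all 11974 entries tested. The medians of the 2 subunits lie close together in each comparison: 0.205 and 0.216 for intervention against experimental, -0.30 and -0.28 for experimental against control, -0.065 and -0.002 for intervention against control.

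By evolutionary origin the counts were as follows. Of 46 genes with a bacterial homologue, 26 were lower and 7 higher in experimental than control cells (median -0.24). Of 31 mitochondria-specific genes, 19 were lower and 6 higher (median -0.31). Over all entries tested 50.5% were lower and 23.5% higher (median -0.21). Across the 78 genes, which are not independent replicates, the difference between experimental and control cells had a correlation of -0.26 with the GC content of the longest transcript, against -0.12 across 11741 entries. The median GC content was 44.5% for the 13 higher genes, 50.5% for the 46 lower genes and 49.3% for all entries, and the part of base composition in these differences was not tested.

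Many of these genes start opposite another gene, and 26 of 78 had a head-to-head coding neighbour (GENCODE M21 on GRCm38, starts at most 1000 nt apart or overlapping by at most 500 nt). Between experimental and control cells, both genes of 11 of the 25 pairs were called lower and both of 4 pairs higher, 3 pairs were called in opposite directions, and in 7 at least 1 gene was not called or not tested. The 25 pairs hold 26 of the 78 genes because Mrpl46 and Mrps11 face each other. Of all entries 50.5% were called lower, and no like count was made over all head-to-head pairs. The opposite pairs, named after their values were seen, were Mrpl40 (lower) with Hira (higher), Mrpl54 (lower) with Apba3 (higher) and Mrpl46 (higher) with Mrps11 (lower). Mrps12 shares its start region with Sars2, the mitochondrial seryl-tRNA synthetase, across a gap of 172 nt. Sars2 averaged 2.57 ± 0.389 FPKM in intervention cells, 2.06 ± 0.105 in experimental cells and 4.22 ± 0.392 in control cells (SD, n = 3 each), lower in experimental than control cells by a log2 difference of -0.77 (adjusted p = 3.0e-05). Mrpl13 and its neighbour Mtbp were both called higher, and so were Mrps18b and Ppp1r10. Some pairs share exonic bases on opposite strands, so their reads may not be separate. Mrpl13 shares 330 with Mtbp. Among pairs called lower together, Mrpl27 shares 75 with Eme1, Mrpl36 shares 30 with Ndufs6 and Mrpl44 shares 126 with Wdfy1. Mrps7, also in such a pair, shares 246 with its neighbour Gga3 and with Mif4gd.

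A pair within the set went apart. Mrpl46, a central protuberance protein (chr7:78775236-78783531, minus strand), and Mrps11, a small-subunit platform protein (chr7:78783119-78792989, plus strand), face each other and share 173 exonic bases. Mrpl46 had 10.0, 7.65 and 8.87 FPKM in intervention libraries, 7.16, 8.22 and 8.27 in experimental libraries and 6.48, 6.19 and 5.44 in control libraries. Mrps11 had 12.5, 11.38 and 11.93 FPKM in intervention libraries, 7.63, 9.37 and 9.85 in experimental libraries and 10.22, 11.21 and 11.67 in control libraries. Every experimental library was above the controls for Mrpl46 and below them for Mrps11. Experimental cells thus differed from controls by 0.34 for Mrpl46 (SE 0.0956, adjusted p = 0.00885) and by -0.28 for Mrps11 (SE 0.0865, adjusted p = 0.0138), although Mrps11 was not called with median-ratio scaling (adjusted p = 0.604).

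The start regions of this pair are shown because the 2 genes start close together on opposite strands, overlapping by 412 nt in GENCODE M21. In RefSeq on GRCm38.p6 the starts are 42 nt apart and the windows of 250 bases before and 50 after each start have 141 bases in common, written on opposite strands. Capitals mark a YY1 motif, which lies in the Mrps11 window outside the shared bases.
Mrpl46 (chr7:78783040-78783339, minus strand): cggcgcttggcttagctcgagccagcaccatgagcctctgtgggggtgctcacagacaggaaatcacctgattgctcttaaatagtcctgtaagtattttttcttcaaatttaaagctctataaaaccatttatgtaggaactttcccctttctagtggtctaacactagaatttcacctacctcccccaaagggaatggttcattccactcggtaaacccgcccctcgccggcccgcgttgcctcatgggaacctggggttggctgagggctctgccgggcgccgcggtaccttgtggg
Mrps11 (chr7:78782881-78783180, plus strand): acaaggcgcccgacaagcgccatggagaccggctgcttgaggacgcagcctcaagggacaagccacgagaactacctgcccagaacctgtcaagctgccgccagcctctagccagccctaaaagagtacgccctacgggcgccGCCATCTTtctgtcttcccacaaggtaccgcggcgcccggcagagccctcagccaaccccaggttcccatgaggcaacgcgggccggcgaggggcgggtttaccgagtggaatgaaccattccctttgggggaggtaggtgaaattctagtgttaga

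RefSeq start windows were matched for 69 of the 78 genes and searched on both strands for motifs of factors known for mitochondrial or stress genes. The ETS motif of GABP (CCGGAAG) was found in 26 windows (37.7%), against 22.5% of the windows of 8400 tested entries and 9.93% of all 27025. The NRF1 motif (GCGC, any base, TGCGC) was found in 13 (18.8%, against 12.8% and 5.19%) and the YY1 motif (AAGATGGC) in 12 (17.4%, against 6.0% and 3.19%). NRF1 and GABP are textbook activators of nuclear genes for mitochondria. The antioxidant response element (TGACNNNGC) was found in 14 windows (20.3%, against 16.9% and 13.99%) and the MYC E-box (CACGTG) in 5 (7.25%, against 12.3% and 8.09%). The ATF4 element (TGATGNAA) and the heat shock element (GAA, TTC and GAA, each pair parted by any 2 bases) were in none of the 69 windows, and in 2.43% and 0.56% of those of tested entries.

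The motifs occurred in genes of either direction. Among 41 lower genes with a window, 16 held the ETS motif, 8 the NRF1 motif and 8 the YY1 motif, and among 11 higher genes 3, 3 and 1 did. By subunit, the NRF1 motif was in 10 of 43 large-subunit and 3 of 26 small-subunit windows, and the ETS motif in 15 and 11. Windows of 3 lower genes show how the motifs sit. Mrps12 holds an ETS and a YY1 motif, Mrpl34 an ETS motif and, further on, an antioxidant response element, and Mrpl17 an ETS and an NRF1 motif, all in capitals. Mrpl17, an exit tunnel protein chosen after its values were seen, averaged 2.837 ± 0.27 FPKM in intervention cells, 2.06 ± 0.128 in experimental cells and 3.803 ± 0.394 in control cells (SD, n = 3 each; difference between experimental and control cells -0.65, adjusted p = 4.7e-05).
Mrps12 (chr7:28741772-28742071, minus strand): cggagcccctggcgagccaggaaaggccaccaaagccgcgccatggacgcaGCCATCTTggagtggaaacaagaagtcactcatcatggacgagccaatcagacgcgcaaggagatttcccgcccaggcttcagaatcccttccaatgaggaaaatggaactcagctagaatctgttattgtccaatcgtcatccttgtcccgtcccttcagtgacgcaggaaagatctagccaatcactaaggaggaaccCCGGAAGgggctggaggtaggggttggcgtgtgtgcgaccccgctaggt
Mrpl34 (chr8:71464676-71464975, plus strand): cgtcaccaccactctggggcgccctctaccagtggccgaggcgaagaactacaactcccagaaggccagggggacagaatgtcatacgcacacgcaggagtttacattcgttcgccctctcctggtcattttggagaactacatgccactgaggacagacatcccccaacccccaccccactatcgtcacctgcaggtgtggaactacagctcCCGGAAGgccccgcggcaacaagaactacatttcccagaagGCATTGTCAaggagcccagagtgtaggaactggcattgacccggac
Mrpl17 (chr7:105811038-105811337, minus strand): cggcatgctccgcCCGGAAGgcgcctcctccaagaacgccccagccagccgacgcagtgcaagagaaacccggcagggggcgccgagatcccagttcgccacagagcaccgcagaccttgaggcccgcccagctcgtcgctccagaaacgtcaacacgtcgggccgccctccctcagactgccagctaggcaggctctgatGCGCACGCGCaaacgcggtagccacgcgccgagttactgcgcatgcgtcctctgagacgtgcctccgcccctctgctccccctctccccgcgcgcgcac

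In intervention against experimental cells every called gene was higher. Higher levels in intervention cells were called for 27 of 78 genes and lower levels for none, where 15.9% of all entries tested were called higher and 3.6% lower. At an unadjusted p under 0.05, 46 genes were higher and none lower by limma, against 30.6% and 7.38% of all entries. The difference was above 0 for 75 of the 78 genes, with a median of 0.21 against 0.10 for all entries, and in 49 genes every intervention library lay above every experimental library (33.7% of all entries). In no gene did every intervention library lie below (8.79% of all entries). The effects were small, with 4 genes at least 1.5-fold higher (3.32% of all entries).

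The count depends on single libraries. No gene was called when intervention library 1, experimental library 1 or experimental library 3 was left out, and 7 were called without intervention library 3, although all 27 differences stayed positive in each of these fits. Without control library 1, which only lends its spread, 15 were called. With median-ratio scaling 5 were higher and none lower, against 4.74% and 7.9% of all entries, and 4 genes, Mrpl2, Mrpl34, Mrpl51 and Mrps34, were called under median-ratio scaling, quantile normalization and TPM scaling alike.

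By subunit the difference was even: 17 of 49 large-subunit and 10 of 29 small-subunit genes were higher in intervention cells, with medians of 0.205 and 0.216. Of all entries tested 15.9% were called higher. The large-subunit median was 0.012 below that of the small subunit, against a spread of 0.033 between libraries (pooled SD).

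The largest difference was that of Mrps34, whose library values are given above, at 0.61 (SE 0.125, adjusted p = 0.0167), a ratio of 1.61 between intervention and experimental cells. Mrpl34 followed at 0.60 (SE 0.136, adjusted p = 0.0215) and Mrps24, at the mRNA path, at 0.52 (SE 0.126, adjusted p = 0.0245). Mrps24 had 5.09, 5.83 and 5.52 FPKM in intervention libraries, 3.93, 3.82 and 2.88 in experimental libraries and 6.09, 5.62 and 4.18 in control libraries, so intervention and control values overlapped. It shares 226 exonic bases with Urgcp on the same strand, so its level is uncertain as that of a single gene. Mrpl41 (0.45, adjusted p = 0.0487), Mrpl51 (0.44, adjusted p = 0.0151) and Mrps11 (0.39, adjusted p = 0.0207) completed the 6 largest. Mrpl51, found only in mitochondrial ribosomes, had 8.76, 7.26 and 8.14 FPKM in intervention libraries, 5.76, 5.79 and 5.43 in experimental libraries and 9.36, 9.73 and 8.67 in control libraries. It shares 87 exonic bases with Mir3098 on the same strand.

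Of the genes with the largest falls between experimental and control cells, Mrpl2 was higher in intervention than experimental cells by 0.37 (adjusted p = 0.016), Mrps12 by 0.35 (adjusted p = 0.0459) and Mrpl10 by 0.34 (adjusted p = 0.0463). Both comparisons use the same experimental libraries, so a low experimental value moves the 2 differences in opposite directions, and their signs are not independent of each other. The 6 genes with the largest gains between experimental and control cells were not called between intervention and experimental cells. Mrpl38 differed by -0.05 (95% interval -0.159 to 0.0512), Mrps18b by 0.04 (-0.109 to 0.181), Mrps30 by 0.02 (-0.126 to 0.169) and Mrpl13 by 0.08 (-0.0655 to 0.224). Mrps22, a mitochondria-specific small-subunit gene chosen after its values were seen, was called higher in both, by 0.22 between intervention and experimental cells (adjusted p = 0.0297) and 0.18 between experimental and control cells (adjusted p = 0.0147). Mrpl53, chosen after its values were seen, had a large but uncalled difference of 0.60 (adjusted p = 0.0575), with 26.1, 22.66 and 33.59 FPKM in intervention libraries, 20.91, 12.95 and 19.74 in experimental libraries and 21.07, 27.64 and 18.77 in control libraries. Of the 790 exonic bases of Mrpl53, 695 are shared with Gm42688 on the same strand and Ccdc142os on the other. Its level is therefore uncertain as that of a single gene.

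Intervention and control cells differed in both directions. In intervention cells 21 of 78 genes were higher and 23 lower, against 24.1% and 41.1% of all entries tested. Every intervention library lay above every control library in 23 genes (25.8% of all entries) and below in 24 (42.9%). The median difference was -0.06 for the 78 genes and -0.10 for all entries. Median-ratio scaling gave 28 higher and 13 lower, against 32.7% and 32.4% of all entries. Large-subunit names had 14 higher and 17 lower of 49, and small-subunit names 7 higher and 6 lower of 29, with medians of -0.065 and -0.002. The large-subunit median was lower by 0.063 log2 units, a value that shrank to 0.018 with genes placed by structure and to 0.019 without control library 1. Within each library, the median deviation of large-subunit names minus that of small-subunit names was also taken. It was 0.0001, -0.0118 and -0.0221 in intervention libraries and 0.0364, 0.008 and 0.0022 in control libraries, so the groups did not overlap by name.

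Mrpl14, a conserved large-subunit protein at the interface of the subunits, had the largest gain, with 29.92, 20.48 and 26.94 FPKM in intervention libraries, 19.27, 20.07 and 19.93 in experimental libraries and 18.77, 19.38 and 11.69 in control libraries. Its difference between intervention and control cells was 0.62 (SE 0.177, adjusted p = 0.0108), with control library 3 far below the other controls. Mrpl14 shares 106 exonic bases with Tmem63b on the other strand, so its level is uncertain as that of a single gene. Mrpl38 (0.57, adjusted p = 4.4e-06), Mrps18b (0.53, adjusted p = 5.46e-05), Mrpl13 (0.50, adjusted p = 8.61e-05), Mrpl47 (0.48, adjusted p = 0.000123) and Mrpl46 (0.48, adjusted p = 0.00137) were higher in intervention than control cells too. Mrps18a, not called between experimental and control cells, was called here at 0.19 (adjusted p = 0.0152). That call was lost with TPM scaling (adjusted p = 0.0824) and without intervention library 3 (0.0577) or control library 3 (0.0607).

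Lower in intervention than control cells were Mrpl10 (-0.90, adjusted p = 3.45e-05), Mrpl41 (-0.61, adjusted p = 0.00325), Mrpl34 (-0.52, adjusted p = 0.00678), Mrpl2 (-0.48, adjusted p = 0.000212), Mrps12 (-0.44, adjusted p = 0.00415) and Mrpl40 (-0.44, adjusted p = 0.00195). All 6 were among 9 genes called lower under every alternative, beside Mrpl4, Mrpl42 and Mrps15. Mrpl10 stood out in level as well, at 12.95 ± 0.737 FPKM in intervention cells, 10.13 ± 1.95 in experimental cells and 25.05 ± 0.814 in control cells (SD, n = 3 each), a ratio of 0.517 between intervention and control cells. Mrps24 (0.05, 95% interval -0.228 to 0.333), Mrps11 (0.11, -0.0877 to 0.298) and Mrpl18 (-0.04, -0.203 to 0.117) were not called between intervention and control cells. Mrps11 was called higher with median-ratio scaling (0.23, adjusted p = 0.0315) and with quantile normalization (0.22, adjusted p = 0.0376).

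The other genes of mitochondrial translation were read beside the ribosomal proteins. Of 17 mitochondrial aminoacyl-tRNA synthetases, which load tRNAs with their amino acids, 12 were lower and 2 higher in experimental than control cells, with a median difference of -0.57. Over all entries tested 50.5% were lower and 23.5% higher, with a median of -0.21. Iars2, the isoleucyl enzyme, had 7.81, 6.52 and 6.55 FPKM in intervention libraries, 5.52, 5.98 and 5.8 in experimental libraries and 11.93, 11.56 and 11.9 in control libraries (difference between experimental and control cells -0.92, adjusted p = 1.11e-06). The 3 groups did not overlap, with the experimental group lowest. After median-ratio scaling 11 synthetases were lower and 2 higher, against 36.4% and 36.6% of all entries. In intervention against experimental cells 6 of the 17 were higher and none lower, against 15.9% and 3.6% of all entries. Among the 6 was Hars2, the histidyl enzyme, at 0.37 (adjusted p = 0.0151). Calls in this comparison depend on scaling, and after median-ratio scaling 4.74% of all entries were called higher.

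Of 24 tested assembly and rRNA-modifying factors, 13 were lower and 3 higher in experimental than control cells (median -0.32), where 50.5% of all entries were lower and 23.5% higher. Tfb1m, which dimethylates the small rRNA, differed by -0.82 (adjusted p = 3.42e-05) and the assembly helicase Dhx30 by -0.68 (adjusted p = 2.21e-06). Of 13 tested translation factors 8 were lower and 2 higher, with the initiation factor Mtif2 at -0.90 (adjusted p = 9.61e-06) and the elongation factor Tsfm at -0.53 (adjusted p = 6.42e-05). Lrpprc, 1 of the 2 higher, averaged 27.37 ± 0.539 FPKM in intervention cells, 26.76 ± 0.592 in experimental cells and 20.41 ± 0.552 in control cells (SD, n = 3 each). With median-ratio scaling the counts became 10 lower and 7 higher assembly genes and 5 lower and 4 higher translation factors. Among 5 subunit genes whose symbols do not follow the naming rule, Dap3 (-0.37, adjusted p = 0.000327) and Aurkaip1 (-0.40, adjusted p = 0.00104) were lower and Ptcd3 (0.49, adjusted p = 1.82e-05) was higher in experimental than control cells.

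The RNAs that the ribosome contains and reads gave a mixed picture. The rRNA of the small subunit, mt-Rnr1, had 320.51, 302.69 and 282.83 FPKM in intervention libraries, 385.96, 328.01 and 337.02 in experimental libraries and 233.61, 282.32 and 264.81 in control libraries, and it was higher in experimental than control cells by 0.43 (adjusted p = 0.00103). The rRNA of the large subunit, mt-Rnr2, had 634.11, 691.82 and 577.85 FPKM in intervention libraries, 704.11, 651.05 and 662.52 in experimental libraries and 736.08, 791.14 and 845.35 in control libraries, lower in experimental than control cells by a log2 difference of -0.23 (adjusted p = 0.0172). The kit is described as one for mRNA, so the rRNA levels are those that such libraries retain. Of the 13 mitochondrially encoded mRNAs only mt-Co1 was called, higher in experimental cells by 0.18 (adjusted p = 0.0414), whereas median-ratio scaling called all 13 higher and quantile normalization called 5 lower.

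Regulators of mitochondrial transcription split. In experimental against control cells 5 of 13 were higher and 4 lower, against 23.5% and 50.5% of all entries. Ppargc1a, a coactivator of mitochondrial genes, had 7.41, 6.61 and 7.13 FPKM in intervention libraries, 5.46, 5.87 and 5.66 in experimental libraries and 11.11, 10.37 and 10.96 in control libraries (difference between experimental and control cells -0.83, adjusted p = 7.19e-07). Tfb2m, which opens mitochondrial promoters, had 10.14, 10.79 and 9.36 FPKM in intervention libraries, 13.45, 10.95 and 11.88 in experimental libraries and 4.87, 5.31 and 6.08 in control libraries (difference 1.03, adjusted p = 3.42e-06). Myc, a growth regulator that drives ribosome genes, averaged 36.3 ± 4.11 FPKM in intervention cells, 43.62 ± 1.59 in experimental cells and 22.34 ± 0.888 in control cells (SD, n = 3 each; difference between experimental and control cells 0.94, adjusted p = 2.18e-06).

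Most genes of cytosolic ribosomal proteins were higher in experimental than control cells. Of 79 such genes 69 were higher and none lower, against 23.5% and 50.5% of all entries. Their median was 0.38, although quantile normalization gave 53 higher and 7 lower. Rpl10a had 298.86, 289.35 and 291.01 FPKM in intervention libraries, 289.3, 283.4 and 286.3 in experimental libraries and 201.5, 218.5 and 198.01 in control libraries (difference between experimental and control cells 0.47, adjusted p = 8.89e-06). Between intervention and experimental cells none of the 79 was called by limma, where 27 of the 78 mitochondrial genes and 15.9% of all entries were higher. Those 27 calls fell to 5 with median-ratio scaling. None was left without intervention library 1, experimental library 1 or experimental library 3. Many cytosolic ribosomal proteins have near-identical pseudogenes, so their levels as single genes are uncertain.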

How the data were processed

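The authors deposited 1 table of FPKM, with 29756 entries and 9 libraries; depth cannot be had from it and no count test was run, since the low values were not whole multiples of 1 read (17.2% of the nonzero values of genes under 200 nt were smaller than even a very deep library allows for 1 read). Per the labels' protocols, total RNA from a Qiagen RNeasy column went into SMARTer mRNA-Seq libraries. The build is mm10, per the submitters' processing notes. Neither an aligner and counter nor strand use is given in the sources used here.

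Values were transformed to log2(FPKM + 1), which understates changes of low genes. Entries with at least 1 FPKM in at least 3 of 9 libraries (11974) entered limma 3.58.1 (R 4.3.3; all 9 libraries in 1 fit, eBayes with a mean-variance trend, 2-sided, Benjamini-Hochberg over all entries tested). The script was tested on simulated data. A pooled SD is the spread between libraries of a group. Positions came from GENCODE M21 and start windows from RefSeq (GRCm38.p6), which held 69 of the 78 genes.

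Named genes were the 6 largest called changes per direction and comparison, the 3 highest and 3 lowest levels, 16 genes fixed by role, and up to 4 genes per pathway list with the smallest adjusted p. The genes and lists were chosen with earlier results of these data known. The alternatives were another pseudocount (0.1), no filter, a mean of at least 5 FPKM, 3 other scalings, fitting only the compared groups, a replicate block, leaving out each library, and subunits by structure.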

Additional observations from a re-analysis of the deposited data

How the results depend on the processing

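Counts of called genes were most sensitive in intervention against experimental cells, where 27 genes higher became 1 with no filter on low values, 5 with median-ratio scaling, 4 with quantile normalization and 15 with the replicate block, and 0 to 27 when 1 library was left out. None was lower under any alternative. In experimental against control cells 13 higher genes became 25 (median-ratio) and 22 (quantile), and 46 lower genes became 26 under either scaling; leaving out 1 library gave 9 to 17 higher and 42 to 47 lower. In intervention against control cells 23 lower genes became 13 with no filter, 13 with median-ratio scaling and 11 with quantile normalization, and 14 to 28 without 1 library (14 without intervention library 2, 15 without control library 2). The count of higher genes, 21, was 19 to 23 without 1 library. The gap between the large-subunit and small-subunit medians moved as well. In intervention against experimental cells it was 0.028 with quantile normalization and -0.018 to 0.040 without 1 library. In experimental against control cells it was -0.057 to 0.058 without 1 library. In intervention against control cells it was -0.047 with a mean of at least 5 FPKM, -0.082 with quantile normalization, -0.018 by structure and -0.064 to -0.019 without 1 library. Mrpl3 turned positive in experimental against control cells with median-ratio scaling (0.17) and quantile normalization (0.20), and Mrps7 with median-ratio scaling (0.0206); both scalings move the median of all entries to near 0. Over all named genes and alternatives, 1522 values kept their call or lack of one, 160 lost the call and 31 gained it. A further 3 turned in sign with a call before or after the change. Sign changes without a call in either fit were counted among the 1522. For the lost calls the cause was not tested. Replicate numbers do not pair the libraries: same-numbered libraries correlated in their deviations from the group means at -0.18 to 0.11, differently numbered ones at -0.14 to 0.15, and in the other comparisons the replicate block kept the counts within 1.5 times.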
